A study of Mus musculus with 18 samples.

Results

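The milk protein genes are the caseins Csn1s1, Csn1s2a, Csn2 and Csn3 and the whey protein genes Wap and Lalba, measured here in WT and Cip2a-/- mammary glands. They were picked by gene symbol and make up 6 of the 23337 rows of the count table. Of these, 5 passed the filter on low counts and were tested among 15482 genes. Wap did not pass, since only 2 libraries held 10 or more of its reads, and is described by its reads.

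Caseins are the phosphoproteins that carry calcium phosphate in milk as micelles, and the whey proteins are the soluble ones. Both are made by secretory luminal cells of the alveoli, where prolactin acts through its receptor (Prlr), the kinase Jak2 and the transcription factor Stat5, together with glucocorticoid signalling and the alveolar factor Elf5. In the mouse, casein transcripts can be detected in glands of virgin animals, rise in pregnancy and reach their peak in lactation, while Wap is regarded as a later marker of secretory differentiation than Csn2.

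The libraries were made from polyA RNA of whole gland tissue, with lymph nodes excluded, from mice on a C57BL/6Jx129 background. There were 3 libraries in each of 6 groups: WT and Cip2a-/- mice without treatment, both genotypes 2 weeks after a course of 6 DMBA doses given 1 week apart, and both genotypes at the endpoint. DMBA (7,12-dimethylbenz[a]anthracene) is a carcinogen that induces mammary tumours in rodents, given here as 1 mg in oil by gavage from an age of 12 to 14 weeks. Endpoint glands were free of tumour and came from mice killed because of a DMBA-induced tumour in any tissue. The Cip2a protein inhibits the phosphatase PP2A, and the sources used here do not give how the allele was made. They also state no age at collection, reproductive history or oestrous stage, though a range of ages for the 2-week glands follows from the dosing times above. No oil-only group was analysed here, so DMBA, gavage, oil and age cannot be told apart in any comparison with untreated glands. The labels do not state that the libraries of a group come from separate animals, and p-values then measure only the spread between these samples. In bulk tissue, fewer cells of a type and less RNA per cell cannot be told apart.

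Total counts ranged from 16121743 to 24586404 per library. Cip2a itself, checked first, lay between 0.830 and 4.87 CPM (read counts scaled for library depth by TMM) in WT libraries and between 0 and 0.0598 CPM in Cip2a-/- libraries. White adipocyte markers were present in every library, with a summed level of 9298 to 31318 CPM. The 10 luminal epithelium markers (Epcam, Krt7, Krt8, Krt18, Krt19, Cldn3, Cldn4, Cldn7, Cdh1 and Esrp1) summed to between 634 and 4213 CPM in 17 libraries and to 32.4 CPM in WT endpoint library 1. That library held 4.37 CPM of Epcam, 0.127 CPM of Elf5 and 6674 CPM of the muscle gene Ckm. Ckm was also high in Cip2a-/- 2-week library 1 (9284 CPM) and untreated WT library 1 (5777 CPM). In WT endpoint library 1 the 6 T cell markers, all present, summed to 591 CPM, next to 6.92 to 324 CPM in the other libraries. Its 7 B cell markers summed to 1808 CPM, next to 1.16 to 655 CPM elsewhere. Its 6 brown fat markers summed to 8196 CPM, next to 31.3 to 873 CPM elsewhere. Its 8 basal myoepithelium markers summed to 332 CPM, next to 447 to 2483 CPM elsewhere. The luminal part of the labelled tissue is nearly missing from that library, and the median fold changes that use this library are given with and without it.

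The casein genes lie together on chromosome 5 within 266.3 kb, in the order Csn1s1, Csn2, Csn1s2a and Csn3, on GRCm38 (mm10). Csn1s1 spans chr5:87666208-87682578, Csn2 chr5:87692619-87699429, Csn1s2a chr5:87774450-87788798 and Csn3 chr5:87925579-87932550, with Csn2 alone on the minus strand. Wap lies at chr11:6635483-6638654 and Lalba at chr15:98480400-98482934, both on the minus strand. RefSeq promoters (GRCm38.p6) were matched for 5 of the 6 genes. The 250 bases before the start are shown for the 3 calcium-sensitive caseins, whose levels moved together over the libraries, and for Wap, whose reads were almost all in 1 library. Capitals mark matches to the Stat5 consensus TTCNNNGAA, searched on both strands, and all sequences are written 5′ to 3′ on the strand of the gene.
Csn1s1 (chr5:87665958-87666207, plus strand): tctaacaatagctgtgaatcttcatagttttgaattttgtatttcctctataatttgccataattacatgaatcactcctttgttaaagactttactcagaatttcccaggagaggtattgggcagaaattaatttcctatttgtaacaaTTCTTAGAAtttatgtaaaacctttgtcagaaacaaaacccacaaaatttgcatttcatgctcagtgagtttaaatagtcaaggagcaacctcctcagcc
Csn2 (chr5:87699426-87699675, minus strand): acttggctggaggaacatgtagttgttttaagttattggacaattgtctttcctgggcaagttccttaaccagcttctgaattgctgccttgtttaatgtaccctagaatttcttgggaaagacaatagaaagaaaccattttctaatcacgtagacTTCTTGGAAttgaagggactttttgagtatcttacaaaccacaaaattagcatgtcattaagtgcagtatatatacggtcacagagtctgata
Csn1s2a (chr5:87774200-87774449, plus strand): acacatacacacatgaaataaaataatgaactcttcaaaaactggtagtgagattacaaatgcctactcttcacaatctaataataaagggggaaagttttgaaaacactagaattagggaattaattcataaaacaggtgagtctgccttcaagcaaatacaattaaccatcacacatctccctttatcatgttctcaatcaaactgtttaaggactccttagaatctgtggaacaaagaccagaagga
Wap (chr11:6638650-6638899, minus strand): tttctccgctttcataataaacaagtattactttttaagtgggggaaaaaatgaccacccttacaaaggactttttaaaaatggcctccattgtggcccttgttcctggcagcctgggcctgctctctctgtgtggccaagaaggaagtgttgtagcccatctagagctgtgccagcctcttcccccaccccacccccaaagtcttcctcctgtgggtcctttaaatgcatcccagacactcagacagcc

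Csn1s1 held the match TTCTTAGAA at 100 to 92 bases before its start, and Csn2 held TTCTTGGAA at 93 to 85 bases before its start. The windows of Csn1s2a, Wap and Lalba held none. The Lalba window, chr15:98482684-98482933, lies inside the gene span given above, so it does not precede the outer start of that span. The Stat5 motif was found in 2 of 5 milk protein windows and in 7.02% of the 32851 RefSeq windows of the same length. The NF1 half-site TTGGC, also searched on both strands, was in the windows of Csn2, Wap and Lalba and in 41.5% of all windows. These matches are a description of the letters in the window, and no binding was measured.

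Milk protein transcripts were read in every gland, and their level differed widely between glands of a group. The 6 genes took 0.573% of the counts in Cip2a-/- endpoint library 1 (95% Clopper-Pearson interval 0.570% to 0.576%) and 0.242% in WT 2-week library 1. The lowest share was 0.000233% in WT endpoint library 1, which rests on 41 reads (interval 0.000167% to 0.000316%), and the median library had 0.0149%. These intervals and those below cover counting error only, since reads are not independent molecules. Of all 239180 reads of these genes, 48.9% came from Cip2a-/- endpoint library 1 and 20.2% from WT 2-week library 1. The summed level in Cip2a-/- endpoint libraries 1 to 3 was 5863, 63.6 and 247 CPM. In WT 2-week libraries 1 to 3 it was 2320, 47.9 and 86.4 CPM. The untreated WT glands were the most even group, at 200.3, 510 and 524 CPM.

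**Figure D1:**
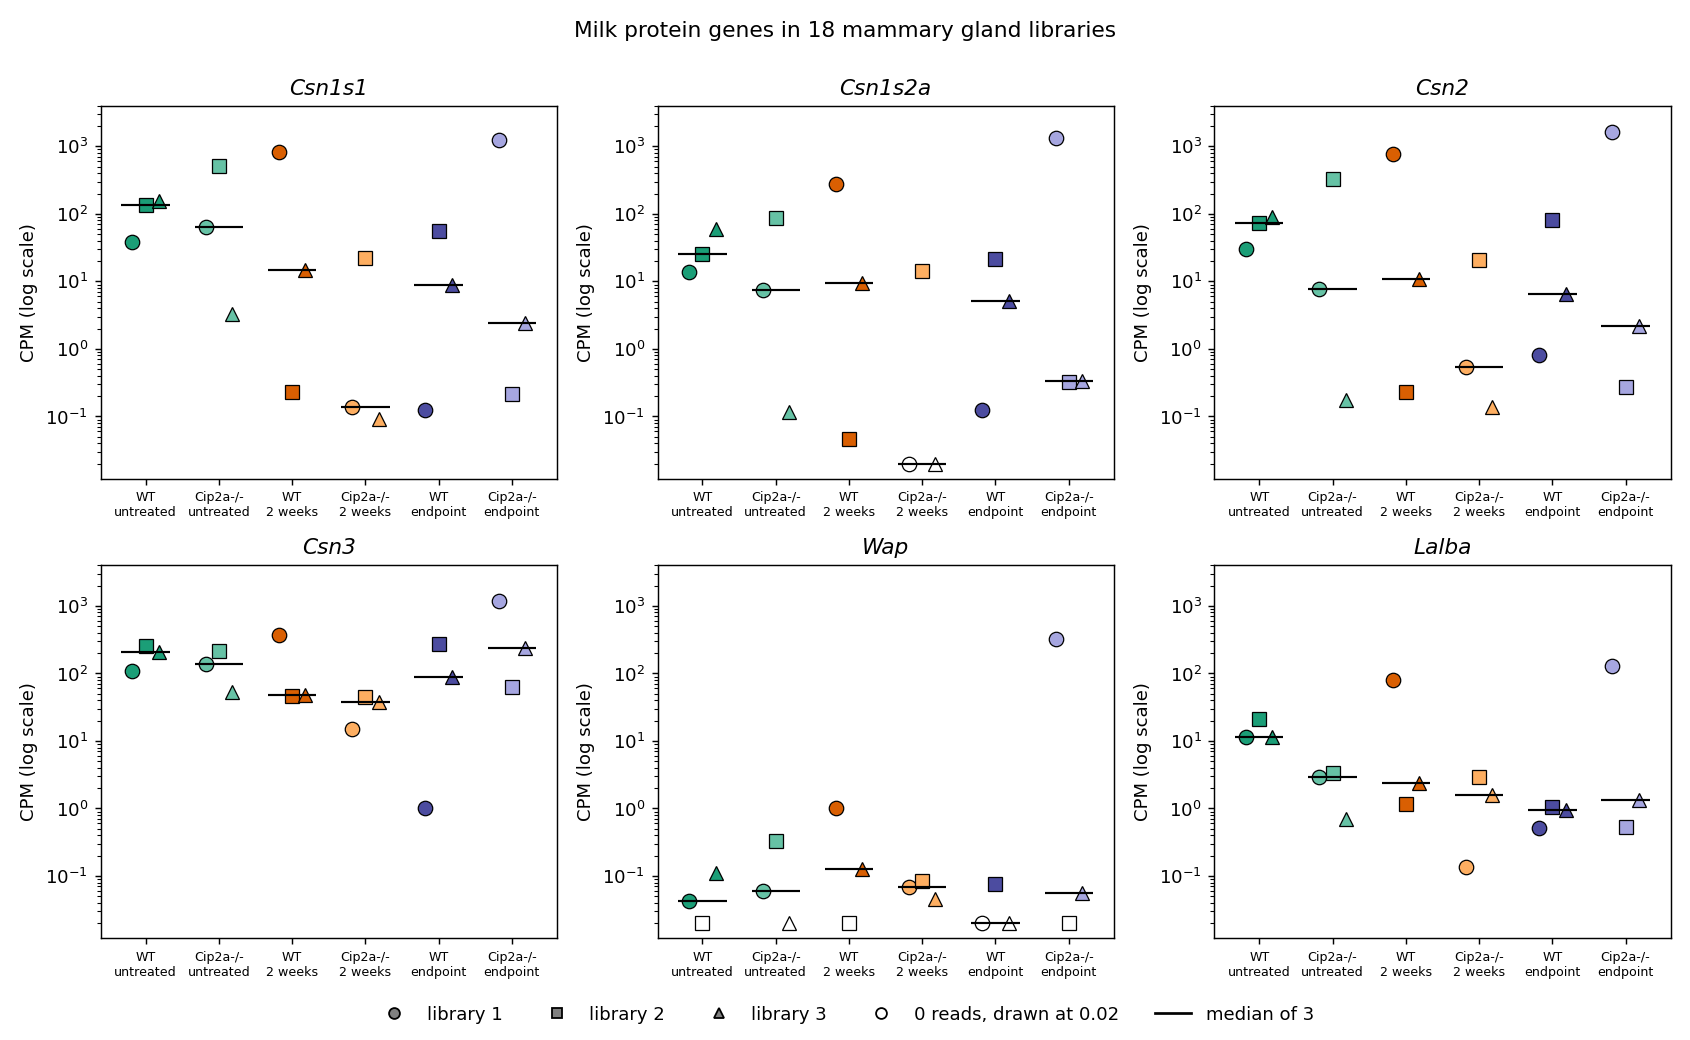
Level of each milk protein gene in CPM (log scale, y axis) in the 6 groups (x axis), with 1 point per library, its shape giving the library number, and a bar at the median of 3. Libraries with 0 reads are open symbols drawn at 0.02 CPM. Cip2a-/- endpoint library 1 is the highest point for all 6 genes and WT 2-week library 1 the second highest for all 6.

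Csn2 encodes beta-casein, a major casein of mouse milk. In untreated WT libraries 1 to 3 it measured 29.7, 73.3 and 88.8 CPM. In untreated Cip2a-/- libraries it measured 7.77, 326 and 0.174 CPM. The WT range lay inside that of Cip2a-/-, in which library 2 was higher and library 3 lower than any untreated WT gland. At 2 weeks, WT libraries gave 768, 0.232 and 10.8 CPM. Cip2a-/- libraries gave 0.548, 20.9 and 0.139 CPM. The ranges of the genotypes overlapped, and within WT the highest library exceeded the lowest 3307-fold (95% counting interval 1417 to 10186, from 15964 and 5 reads). At the endpoint, WT libraries gave 0.823, 82.2 and 6.57 CPM, and Cip2a-/- libraries gave 1655, 0.269 and 2.21 CPM. The highest and the fourth lowest value of Csn2 in the series were found in the same endpoint group.

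Csn1s1 encodes alpha-S1-casein. It measured 38.2, 137 and 157 CPM in untreated WT libraries and 63.9, 518 and 3.24 CPM in untreated Cip2a-/- libraries. At 2 weeks it measured 820, 0.232 and 14.9 CPM in WT and 0.137, 22.1 and 0.0927 CPM in Cip2a-/-. At the endpoint it measured 0.127, 55.2 and 8.91 CPM in WT and 1248, 0.215 and 2.43 CPM in Cip2a-/-. As for Csn2, Cip2a-/- endpoint library 1 was highest and WT 2-week library 1 second. For Csn1s1, unlike Csn2, the untreated glands were the only ones in which no library fell under 1 CPM. Csn1s2a encodes an alpha-S2-type casein. Its untreated libraries gave 13.8, 25.7 and 60.7 CPM in WT and 7.47, 86.8 and 0.116 CPM in Cip2a-/-. Its 2-week libraries gave 280, 0.0465 and 9.55 CPM in WT, and in Cip2a-/- 14.1 CPM in library 2 and 0 reads in libraries 1 and 3. Its endpoint libraries gave 0.127, 21.3 and 5.12 CPM in WT and 1326, 0.322 and 0.332 CPM in Cip2a-/-. Cip2a-/- endpoint library 1 held 71.4% of all Csn1s2a reads, against 40.7% for Csn1s1 and 53.5% for Csn2.

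Csn3 encodes kappa-casein, which sits on the micelle surface and keeps it from aggregating. It was the steadiest of the caseins and the only milk protein gene with at least 1 CPM in all 18 libraries. Untreated libraries gave 107, 252 and 206 CPM in WT and 136, 217 and 52.5 CPM in Cip2a-/-. At 2 weeks they gave 372, 46.2 and 48.7 CPM in WT and 14.9, 44.9 and 38.2 CPM in Cip2a-/-. The Cip2a-/- 2-week glands all lay below the lowest untreated Cip2a-/- gland and below the lowest WT 2-week gland, ranges that were also separate for 12.4% and 13.2% of all tested genes. At the endpoint, WT libraries gave 1.01, 270 and 89.6 CPM and Cip2a-/- libraries 1182, 62.3 and 241 CPM. The 1.01 CPM was that of WT endpoint library 1, the one nearly free of luminal markers.

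Lalba encodes alpha-lactalbumin, which joins the galactosyltransferase B4galt1 to form lactose synthase. Untreated WT libraries held 11.3, 21.1 and 11.6 CPM, and untreated Cip2a-/- libraries held 2.93, 3.41 and 0.695 CPM, so these ranges did not overlap, as was the case for 12.4% of all tested genes. At 2 weeks, WT libraries held 79.1, 1.16 and 2.35 CPM and Cip2a-/- libraries 0.137, 2.92 and 1.58 CPM. At the endpoint, WT libraries held 0.507, 1.04 and 0.948 CPM and Cip2a-/- libraries 131, 0.537 and 1.33 CPM. The 3 WT endpoint libraries all lay below the 3 untreated WT libraries, from 8 to 27 reads each, and 16.3% of all tested genes had separate ranges there.

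Wap encodes whey acidic protein, the major whey protein of mouse milk. Its reads were almost all in 1 gland: 6395 reads (320 CPM) in Cip2a-/- endpoint library 1, which is 99.4% of its reads in the series. The next library was WT 2-week library 1, with 21 reads (1.01 CPM), and the ratio of their CPM was 317 (95% counting interval 207 to 513). Untreated WT libraries 1 to 3 held 1, 0 and 2 reads, and untreated Cip2a-/- libraries 1, 6 and 0 reads. The other 2-week libraries held 0 and 3 reads in WT and 1, 2 and 1 reads in Cip2a-/-. The WT endpoint libraries held 0, 2 and 0 reads, and Cip2a-/- endpoint libraries 2 and 3 held 0 and 1 reads. Wap made up 5.47% of the milk protein reads in Cip2a-/- endpoint library 1 (interval 5.34% to 5.60%) and 0.0436% in WT 2-week library 1 (0.0270% to 0.0666%). Between the same libraries the ratio was 1.52 for Csn1s1, 1.65 for Lalba, 2.15 for Csn2, 3.17 for Csn3 and 4.74 for Csn1s2a, each far under that of Wap. This comparison of 2 single libraries has no replicate check.

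Ordered by the group median, Csn1s1, Csn1s2a, Csn2 and Lalba were highest in untreated WT glands, and Csn3 was highest in Cip2a-/- endpoint glands. Each of the 3 calcium-sensitive caseins, and Csn3, had its lowest median in Cip2a-/- 2-week glands, and Lalba in WT endpoint glands. For Csn1s1, Csn1s2a and Csn2, all 5 pairs of neighbouring groups in that order had overlapping ranges, and for Csn3 and Lalba 4 of 5 did. Of all 15 pairs of groups, 4 had separate ranges for Csn3, each of them with the Cip2a-/- 2-week glands on the lower side. For Lalba 4 of 15 were separate, 3 with untreated WT glands on the higher side and the other with WT 2-week above WT endpoint glands. Csn1s1 and Csn2 each had 1 separate pair, untreated WT above Cip2a-/- 2-week glands, and Csn1s2a had 0. Over all tested genes, 5.28% to 25.8% had separate ranges in a given pair, and 18.2% in the pair of untreated WT and Cip2a-/- 2-week glands. The group medians of Csn2, for example, ran from 73.3 CPM in untreated WT through 10.8 in WT 2-week, 7.77 in untreated Cip2a-/-, 6.57 in WT endpoint and 2.21 in Cip2a-/- endpoint to 0.548 CPM in Cip2a-/- 2-week glands. The group means gave another order, because 1 library carried most of a mean: 553 ± 955 CPM in Cip2a-/- endpoint (SD, n = 3), 259.8 ± 440.5 CPM in WT 2-week, 111 ± 186 CPM in untreated Cip2a-/-, 63.9 ± 30.6 CPM in untreated WT, 29.9 ± 45.4 CPM in WT endpoint and 7.21 ± 11.9 CPM in Cip2a-/- 2-week glands.

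The spread within groups was among the widest of all genes tested. The within-group SD of log2 CPM was 4.52 for Csn1s2a, 4.48 for Csn2 and 4.40 for Csn1s1, against a median of 0.41 over all tested genes. These caseins ranked at places 3, 4 and 10 of 15482 genes. Lalba (SD 2.34, place 209) and Csn3 (SD 2.13, place 274) varied less, yet 1.34% and 1.76% of tested genes varied more than they did. The share of the variance that lay between the 6 groups was 15.2% for Csn2, 17.7% for Csn1s2a, 26.2% for Csn1s1, 32.0% for Csn3 and 35.7% for Lalba, with a median of 34.9% over all genes.

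The genes rose and fell together over the libraries. Pearson's r of log2 CPM over 18 libraries was 0.98 for Csn1s2a with Csn2, 0.96 for Csn1s1 with Csn1s2a and 0.95 for Csn1s1 with Csn2. Lalba correlated at 0.82 to 0.85 with these caseins, Csn3 at 0.70 to 0.77, and Wap at 0.55 to 0.64. Outside Cip2a-/- endpoint library 1, Wap had 6 or fewer reads in 16 of 17 libraries, so its r values rest on few libraries. With group means removed, the 3 casein pairs gave 0.98, 0.98 and 0.98, Wap gave 0.74 to 0.78 with these caseins and 0.84 with Lalba, and Csn3 gave 0.72 to 0.79 with them. These values are descriptions without a test: the points share their library, its depth and its amount of epithelium.

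Per kilobase of exon, Csn3 was the most abundant of the 6 in 13 of 18 libraries, and the make-up differed widely between libraries. In untreated Cip2a-/- library 3, WT 2-week library 2, Cip2a-/- 2-week libraries 1 and 3 and Cip2a-/- endpoint libraries 2 and 3, where Csn2 was at 2.21 CPM or less, Csn3 made up 85.6% to 94.6% of the summed CPM per kb. WT endpoint library 1, with Csn2 at 0.823 CPM, was the exception: Lalba led there with 34.7%, Csn2 had 32.3% and Csn3 20.9%, from 41 reads in all. In Cip2a-/- endpoint library 1 Csn3 made up 9.68%, with 30.2% Csn1s2a, 25.8% Csn2, 18.5% Csn1s1, 12.2% Wap and 3.56% Lalba. In WT 2-week library 1, Csn1s1 and Csn2 led with 34.0% and 33.5%, and Wap was at 0.108%. These shares use the union of all annotated exons, 2561 bases for Csn3. Another set of shares used the first-numbered GENCODE transcript of each of the 6 genes. Its length was 991 bases for Csn3 and 1117 bases for Csn2, whose exon union is 1346 bases. With these lengths Csn3 led in 15 libraries. The share of Csn3 in Cip2a-/- endpoint library 1 was then 20.7%, and Csn2 led there with 25.8%.

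**Figure D2:**
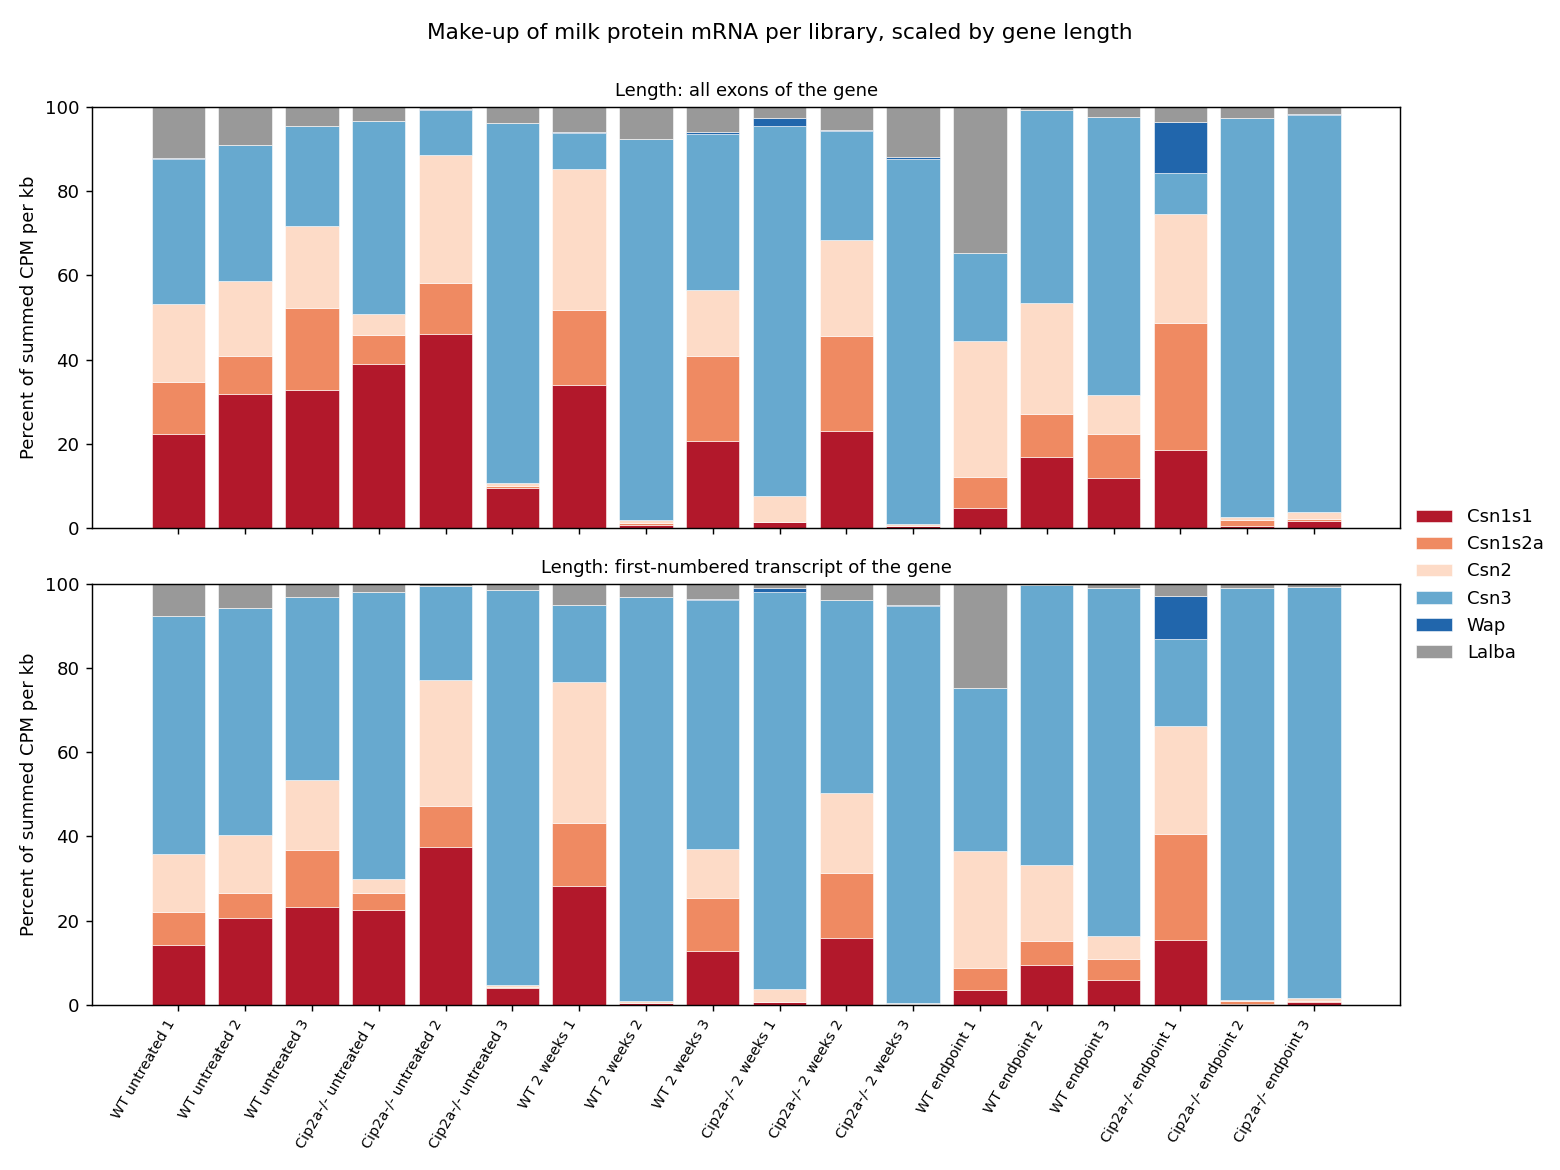
Percent of the summed length-scaled level (CPM per kb, y axis) taken by each milk protein gene in each of the 18 libraries (x axis), with the length of all exons (upper panel) or of the first-numbered transcript (lower panel). Wap is visible as a broad band in Cip2a-/- endpoint library 1, where it is 12.2% with all exons, and Csn3 fills most of the bar in 6 of the 7 libraries with Csn2 at 2.21 CPM or less, WT endpoint library 1 being the other.

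Set against luminal markers, the milk protein level differed widely between glands. The summed CPM of milk protein genes per summed CPM of the 10 luminal markers was 1.57 in Cip2a-/- endpoint library 1, 1.35 in WT 2-week library 1 and 0.752 in untreated Cip2a-/- library 2. Untreated WT libraries gave 0.316, 0.502 and 0.362, and Cip2a-/- 2-week libraries gave 0.00936, 0.0696 and 0.0393. WT endpoint libraries gave 0.0801, 0.121 and 0.154. All 3 Cip2a-/- 2-week and all 3 WT endpoint glands lay below every untreated WT gland on this ratio, and they are among 11 of the 15 libraries outside that group that did. Cip2a-/- endpoint library 3 had the highest luminal sum of the series, 4213 CPM, and a ratio of 0.0587. Over the 18 libraries, the mean log2 CPM of the members correlated with the 10 luminal markers at 0.14 (Cldn4) to 0.52 (Epcam). With the 7 luminal progenitor markers it correlated at 0.13 for Itga2, 0.52 for Aldh1a3, 0.74 for Cd14, 0.75 for Kit, 0.77 for Elf5 and Sox10 and 0.78 for Ehf. Whether cell make-up has a part in the spread was not tested.

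**Figure D3:**
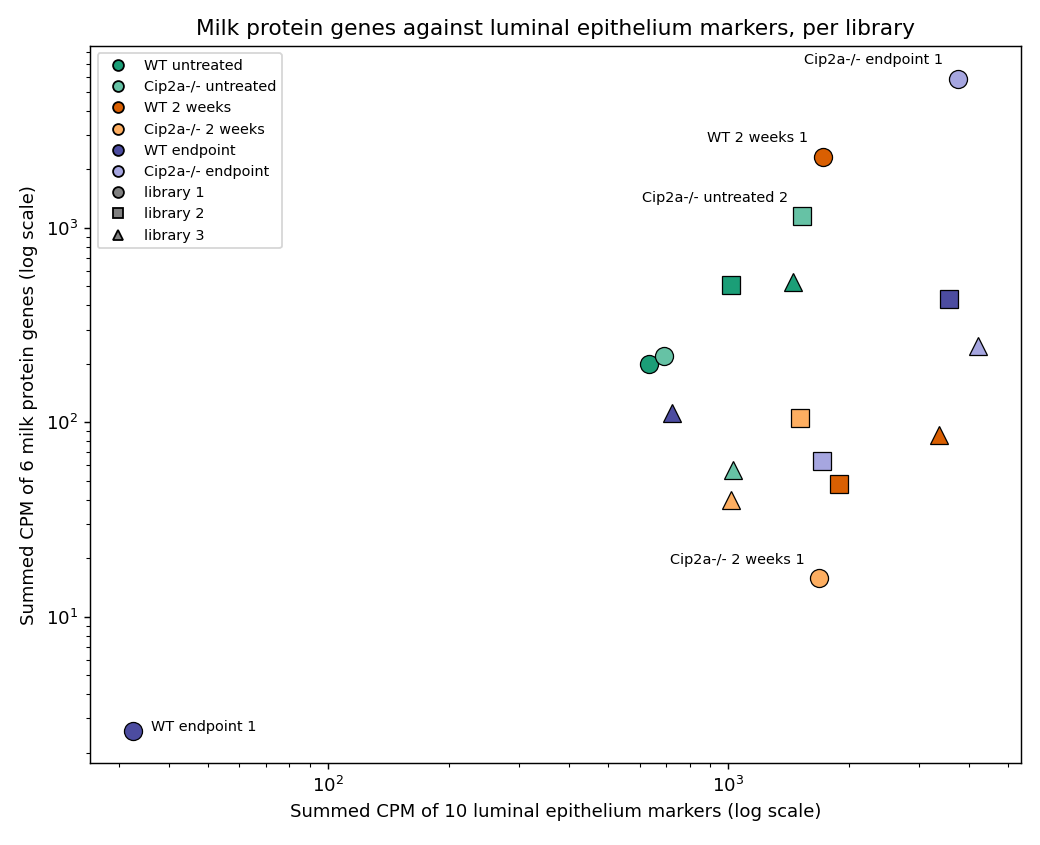
Summed CPM of the 6 milk protein genes (y axis) against summed CPM of 10 luminal epithelium markers (x axis), both on log scales, with 1 point per library, coloured by group. At nearly equal luminal sums of 1684 and 1722 CPM, the milk protein sum is 15.8 CPM in Cip2a-/- 2-week library 1 and 2320 CPM in WT 2-week library 1.

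None of the 5 tested genes was called in any of 12 comparisons (edgeR quasi-likelihood F-test, adjusted p under 0.05 over all 15482 genes), and few genes of any kind were. For the loss of Cip2a, the percentage of all tested genes called was 0.0% in untreated glands, 0.00646% at 2 weeks, 0.00646% at the endpoint and 0.00646% averaged over the conditions. For 2 weeks against untreated it was 0.0% in WT, 0.0129% in Cip2a-/- and 0.0258% averaged. For the endpoint against untreated it was 0.0323% in WT, 0.0% in Cip2a-/- and 0.252% averaged. For the difference between genotypes in the 2-week effect and in the endpoint effect it was 0.0% and 0.0%. With so few genes called at all, the 0 of 5 says little about these genes in particular. At an unadjusted p under 0.05, Lalba passed in 5 comparisons and the caseins in none. Of all 15482 genes, 377, 1659, 1865, 2268 and 1553 passed in those 5 (the genotypes at 2 weeks and at the endpoint, the endpoint effect in WT and in Cip2a-/-, and the genotype difference of the endpoint effect). limma voom and DESeq2 also called 0 of these genes in each comparison; DESeq2 gave an adjusted p for Csn1s1 and Csn3 only.

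Without treatment, Cip2a-/- against WT gave a median log2 fold change over the 5 genes of -0.09, next to 0.04 for all genes tested. The highest value was that of Csn1s1, 0.82 ± 2.56 (SE, adjusted p = 1), and the lowest that of Lalba, -2.64 ± 1.72 (adjusted p = 1). Lalba was the 1 gene of 5 whose ranges did not overlap, as in 12.4% of all genes. Without Cip2a-/- library 2 the median was -3.02, and without any other library of these groups it lay between -0.49 and 0.67.

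At 2 weeks after DMBA all 5 genes had lower fitted levels in Cip2a-/- than in WT glands; their median log2 fold change was -4.33, and that of all genes 0.04. Csn3 was the nearest to no change, -2.25 ± 1.34, and Csn1s1 the farthest, -5.21 ± 3.05 (both adjusted p = 1.00). Lalba had an unadjusted p of 0.0401 at -4.12 ± 1.83 by the same edgeR test. The ranges did not overlap for 1 gene of 5, Csn3, and for 13.2% of all genes. The median rested on WT 2-week library 1: without it, it was -0.01, and without Cip2a-/- library 2 it was -9.63.

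At the endpoint the direction was the other way, with all 5 genes at higher fitted levels in Cip2a-/- glands and a median of 4.28, next to -0.02 over all genes. Lalba had 5.71 ± 1.98 (adjusted p = 0.458) and Csn3 2.04 ± 1.33 (adjusted p = 0.544). For 0 of the 5 genes did the groups fail to overlap, against 5.28% of all genes. Without Cip2a-/- endpoint library 1 the median was -4.07, and Lalba was at 0.11 ± 1.45 (adjusted p = 0.977). Without WT endpoint library 1 the median was 3.68 and Lalba was at 5.44 ± 2.39, and without WT endpoint library 2 the median was 6.53. Averaged over the 3 conditions, the median genotype difference was -0.05, between Csn1s2a at 0.40 ± 1.49 and Lalba at -0.35 ± 0.96 (both adjusted p = 1.00), with a direction that turned with the library left out. It was -2.83 without Cip2a-/- endpoint library 1, -1.54 without Cip2a-/- 2-week library 2, -0.61 without untreated Cip2a-/- library 2 and -0.26 without WT endpoint library 1. It was 1.69 without WT 2-week library 1 and 0.71 without WT endpoint library 2, and without any other library it lay between -0.26 and 0.14.

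The 2-week glands were compared with untreated ones, a difference in which DMBA, gavage, oil and age are joined. In WT the median log2 fold change was 1.33, with Csn2 at 2.02 ± 2.73 (adjusted p = 0.958) and Csn3 at -0.28 ± 1.28 (adjusted p = 0.985), and without WT 2-week library 1 the median was -3.05. The groups overlapped for all 5 genes, while 25.8% of all genes did not overlap. In Cip2a-/- the median was -2.71, from Csn1s1 at -4.69 ± 2.98 (adjusted p = 0.920) to Lalba at -0.57 ± 1.68 (adjusted p = 0.964). Csn3 alone had separate ranges there, as did 12.4% of all genes, and without Cip2a-/- 2-week library 2 the median was -8.41. Without untreated Cip2a-/- library 2 it was -0.20. The average over both genotypes had a median of -0.96, with Lalba at 0.17 ± 1.16 (adjusted p = 0.994) and Csn1s1 at -1.68 ± 1.85 (adjusted p = 0.907). It was -3.19 without Cip2a-/- 2-week library 2, -2.75 without WT 2-week library 1 and 0.36 without untreated Cip2a-/- library 2.

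At the endpoint against untreated glands, WT had a median of -1.90, from Csn3 at -0.65 ± 1.28 (adjusted p = 0.866) to Lalba at -4.12 ± 1.86 (adjusted p = 0.404). Lalba was the 1 gene of 5 with separate ranges, next to 16.3% of all genes. Without WT endpoint library 1 the WT median was -1.33 and Lalba was at -3.87 ± 2.22 (adjusted p = 0.571). The WT median was -4.11 without WT endpoint library 2 and -1.14 without untreated WT library 3. In Cip2a-/- the median was 2.31, from Csn1s1 at 1.10 ± 2.57 (adjusted p = 0.848) to Lalba at 4.24 ± 1.83 (adjusted p = 0.322). The ranges overlapped for all 5 genes and were separate for 17.6% of all genes. Without Cip2a-/- endpoint library 1 the Cip2a-/- median was -6.49 and Lalba was at -1.34 ± 1.47, and without untreated Cip2a-/- library 2 the median was 4.61. The average over genotypes had a median of 0.61, from Csn1s2a at 0.96 ± 1.83 (adjusted p = 0.826) to Csn1s1 at -0.63 ± 1.81 (adjusted p = 0.887), and it was -3.79 without Cip2a-/- endpoint library 1. It was -0.09 without WT endpoint library 2, 0.90 without WT endpoint library 1, and 0.35 and 0.32 without untreated Cip2a-/- libraries 1 and 3.

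The genotypes were also compared in the difference of their treated from their untreated glands. For the 2-week effect the median difference, Cip2a-/- minus WT, was -4.25, from Csn1s1 at -6.02 ± 3.89 to Lalba at -1.48 ± 2.32 (both adjusted p = 0.999). It was -0.06 without WT 2-week library 1, -1.19 without untreated Cip2a-/- library 2 and -10.43 without Cip2a-/- 2-week library 2. For the endpoint effect it was 3.46, from Csn3 at 2.52 ± 1.84 (adjusted p = 0.592) to Lalba at 8.35 ± 2.61 (adjusted p = 0.490). It was -4.65 without Cip2a-/- endpoint library 1, 2.90 without WT endpoint library 1, 6.42 without WT endpoint library 2 and 8.21 without untreated Cip2a-/- library 2. Untreated glands enter several of these comparisons, and the endpoint and 2-week values share them.

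**Figure D4:**
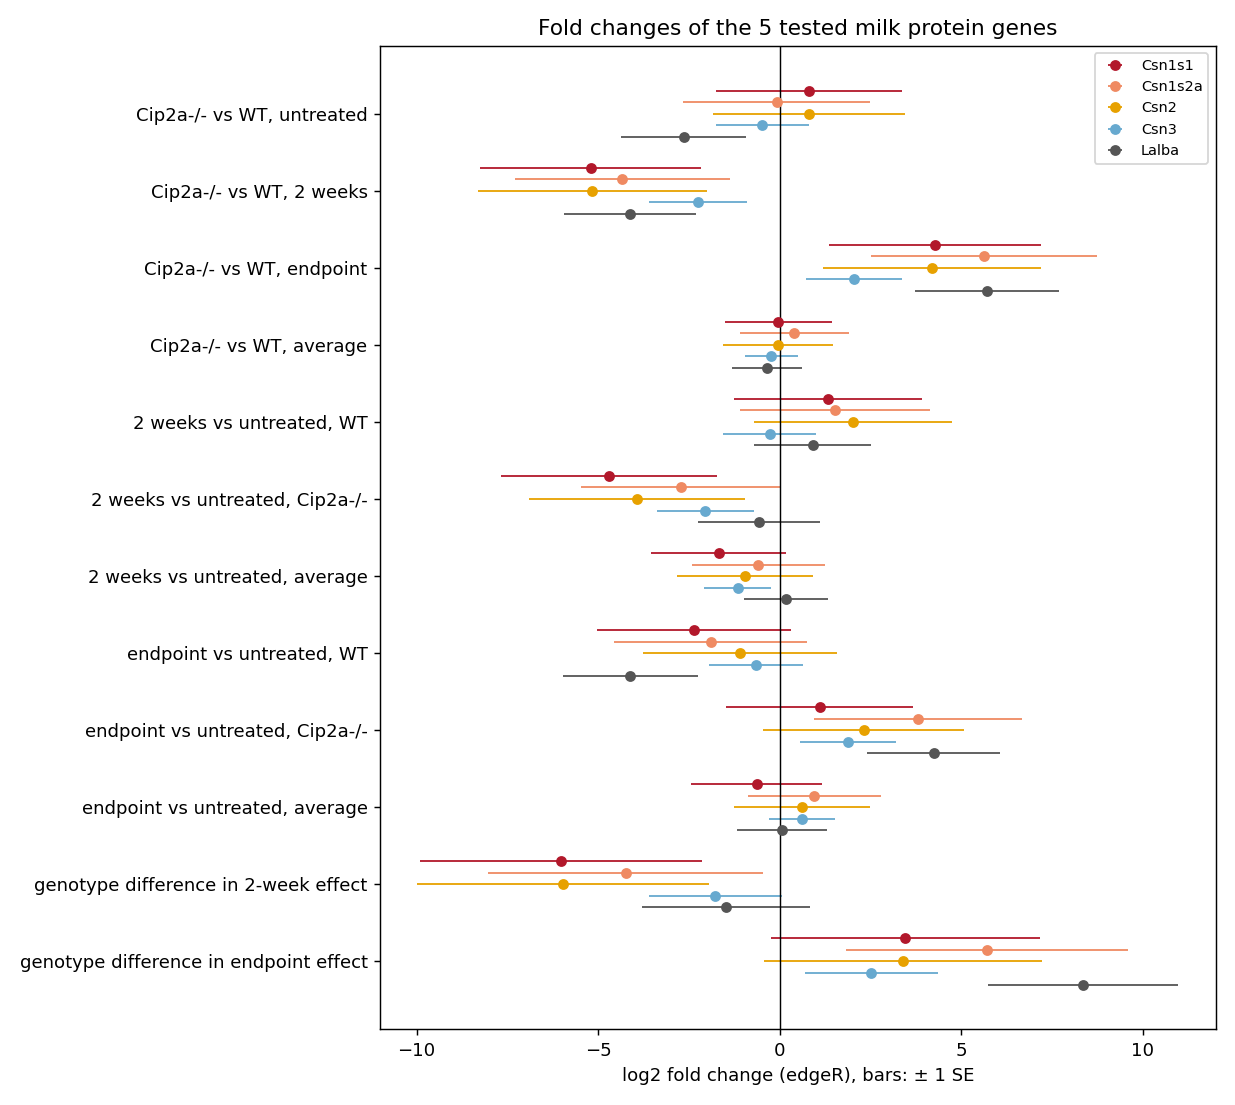
log2 fold change of the 5 tested genes (x axis, points) with 1 SE to each side (bars) in the 12 comparisons (y axis). The points of Cip2a-/- against WT lie left of 0 at 2 weeks and right of 0 at the endpoint for all 5 genes, with SEs of 1.28 to 3.15 in the 3 single conditions, and none was called.

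The other genes of milk secretion were taken from 3 lists. Of 14 tested genes of other milk proteins, 10 tested genes of lactose synthesis and milk transport and 17 tested genes of the prolactin receptor and Stat5 pathway, 0 were called in either direction in the 12 comparisons. In the average endpoint effect, 2 of the 14 milk protein genes had an unadjusted p under 0.05, both higher, as had 3 of 10 transport genes, all higher, and 4 of 17 pathway genes, 3 higher and 1 lower (edgeR). Of all tested genes, 16.9% had such a p in this comparison. The median log2 fold changes of the lists were 1.02, 0.48 and 0.17, next to 0.02 over all genes. Lao1, an L-amino acid oxidase secreted into mouse milk, was at 4.19 ± 1.25 (adjusted p = 0.128), and Glycam1, a milk mucin also made in lymph node vessels, at 4.12 ± 2.01 (adjusted p = 0.316). Glycam1 measured 570 CPM in Cip2a-/- endpoint library 1, 393 CPM in WT endpoint library 1 and 3.48 CPM or less in the other endpoint libraries. The 6 T cell markers summed to 14.2 CPM in the first of these and to 591 CPM in the second, and their part in the result was not tested. Tph1, the mammary serotonin-producing hydroxylase, was at 3.88 ± 1.48 (adjusted p = 0.212), and Olah, the thioesterase that ends milk fatty acids at medium length, at 3.28 ± 1.33 (adjusted p = 0.235). Socs2, a feedback inhibitor induced through Stat5, was at 1.65 ± 0.41 (adjusted p = 0.0969), and Tnfsf11 (RANKL), a paracrine signal downstream of progesterone and prolactin, at 1.30 ± 1.38 (adjusted p = 0.673). Some of these genes were high in few endpoint libraries. Tnfsf11 measured 5.70, 103 and 2.78 CPM in WT and 0.752, 0 and 41.4 CPM in Cip2a-/-. Olah measured 0, 2.71 and 0.126 CPM in WT and 7.32, 0.161 and 0.553 CPM in Cip2a-/-. Values without 1 library are given for the milk protein genes only.

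In the average 2-week effect, 0 of the 14 milk protein genes, 1 of the 10 transport genes and 3 of the 17 pathway genes had an unadjusted p under 0.05, next to 6.57% of all tested genes. Prlr was at 1.65 ± 0.60 and Slc30a4, a zinc exporter, at 0.51 ± 0.19 (both adjusted p = 0.718). Tnfsf11 was at -4.05 ± 1.59 (adjusted p = 0.719). In untreated libraries 1 to 3 it measured 0.694, 0.614 and 16.5 CPM in WT and 0.657, 41.1 and 1.91 CPM in Cip2a-/-. Csn1s2b, the other alpha-S2-type casein gene, was at -2.44 ± 1.66 (adjusted p = 0.810), Cel, the bile salt-stimulated lipase, at -1.67 ± 1.51 (adjusted p = 0.863), and Slc34a2, a phosphate transporter, at -0.64 ± 1.03 (adjusted p = 0.95). At 2 weeks Prlr and Csn2 did not run in parallel over WT libraries 1 to 3. Prlr measured 152, 336 and 438 CPM there, and Csn2 measured 768, 0.232 and 10.8 CPM. Of the same pathway list, Cish measured 26.1, 14.1 and 134 CPM in these libraries and Socs2 19.1, 15.3 and 30.7 CPM. Both were highest in the library with the most Prlr, and signalling through the receptor was not tested. Over the 18 libraries Prlr correlated with the mean of the milk protein genes at -0.04, Stat5b at 0.05, Jak2 at 0.06 and Stat5a at 0.51. Of the same list, Cish correlated at 0.08, Socs2 at 0.27 and Elf5 at 0.77.

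The genes most like the milk protein genes over the 18 libraries, by Pearson's r with their mean log2 CPM, were Cel at 0.91, Plb1, Btn1a1 and BC018473 at 0.89, Muc4 at 0.87, Tgfb3 at 0.86, Muc15 and Scnn1g at 0.85, and Slc5a9 and Pigr at 0.84. They were ranked among 13209 named genes with a mean of at least 1 CPM, and the points share their library and depth. Btn1a1 encodes butyrophilin, which is needed for secretion of milk fat globules, and Pigr the receptor that carries dimeric IgA into milk. Btn1a1 measured 341 CPM in Cip2a-/- endpoint library 1, 262 CPM in WT 2-week library 1 and 0.570 CPM in WT endpoint library 1, with a median of 25.6 CPM. Cel measured 72.0, 9.63 and 0 CPM in the same libraries.

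**Figure D5:**
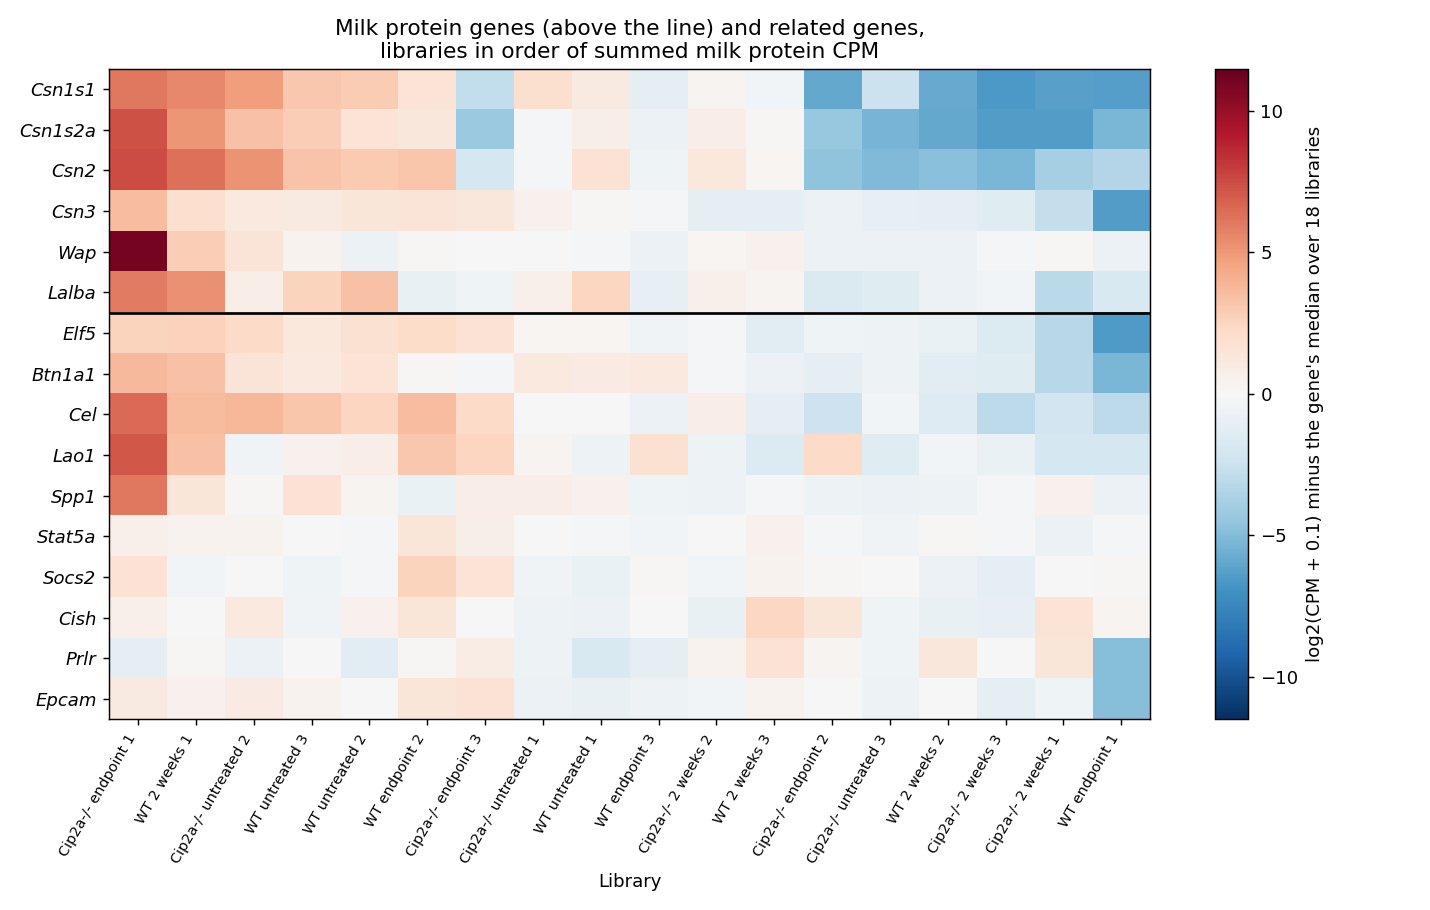
log2(CPM + 0.1) of the 6 milk protein genes and 10 related genes (y axis), each minus its own median over the 18 libraries, with libraries in order of their summed milk protein CPM (x axis). Elf5, Btn1a1 and Cel follow the order of the milk protein genes, and Prlr and Epcam follow it less, with low values of both in WT endpoint library 1 (4.50 CPM of Prlr and 4.37 CPM of Epcam).

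Among the counted genes of the casein region, the high levels were those of the caseins. Within 500 kb on either side of the cluster, 22 of 41 RefSeq genes had a row in the table. The protein-coding genes Prr27, BC037156 and Cabs1 had none, so their levels are unknown. Besides the caseins studied here, 18 genes had a row. Of these, 16 had under 50 reads in all 18 libraries together and 16 never reached 1 CPM. The ameloblast gene Odam, which lies between Csn1s2b and Csn3, had 4 reads in all. Csn1s2b was the 1 neighbour that passed the filter, with 93 reads in all, of which 45 were in Cip2a-/- endpoint library 1 (2.26 CPM), and an r of 0.73 with the mean of the milk protein genes.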

How the data were processed

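NucleoSpin kits were used for RNA and the TruSeq Stranded mRNA guide for libraries, per the labels' protocols. The submitters' processing notes name bcl2fastq 2.17, STAR 2.5.2b, Subread 1.5.1 and mm10, with no roles. Neither the gene annotation nor the handling of strand and of reads with several matches is given there. The deposited table holds raw counts by gene symbol, with 1 column for each library, per the file headers, and 0 columns were unmatched. Everything else was computed here.

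The main analysis ran in R 4.3.3 with edgeR 4.0.16. Genes were filtered by filterByExpr (minimum count 10, minimum total 15), scaled by TMM and fitted with 1 term per group over all 18 libraries. Quasi-likelihood F-tests were adjusted by the Benjamini-Hochberg method over all 15482 genes tested, with calls at an adjusted p under 0.05. log2 CPM used a prior count of 2. Exon lengths are unions of exons in GENCODE M21. The model was tested on simulated counts in which all genes had the same fixed dispersion. That setting lacks the wide spread between libraries of the milk protein genes, so it does not show how the test performs for them. Alternatives used limma 3.58.1, DESeq2 1.42.0, other scalings, filters, covariates and library subsets, with another gene length added after the data were seen.

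The 6 genes and the gene lists were chosen with earlier results of these data known. In each comparison the text names the tested genes with the highest and the lowest log2 fold change and any called gene. From each list it names the 2 genes with the largest absolute change in the average 2-week and endpoint comparisons, and of similar genes the 10 with the highest correlation.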

Additional observations from a re-analysis of the deposited data

How the results depend on the processing

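The count of called milk protein genes stayed at 0 under all 203 alternative counts run, which combine 12 comparisons with 8 other settings and with 18 fits that leave out a library. The average genotype difference could not be fitted with only the groups compared, since it uses all 6. Of 406 alternative values of the 24 named fold changes, none was called. DESeq2 gave an adjusted p for Csn1s1 and Csn3 only. In both counts its results for Csn1s2a, Csn2 and Lalba therefore could not be called, whatever their size. With a replicate block (replicate number of the titles as a term) the direction turned for Csn1s1 in Cip2a-/- against WT untreated (-1.81), Csn1s2a in the average genotype difference (-0.89), Csn2 in WT at 2 weeks (-0.27), and Lalba in Cip2a-/- at 2 weeks (0.063), in the 2-week average (-0.35) and in the genotype difference of the 2-week effect (0.82). No pairing by number was evident, though this check cannot exclude one: 17 of 45 same-numbered pairs had r above 0.1. The mean r was 0.0322 for same-numbered and -0.017 for other-numbered pairs. Of 18 libraries, 7 correlated best with their own number. With the luminal epithelium score as a term it turned for Csn1s2a in the average genotype difference (-0.26) and Csn1s1 in Cip2a-/- at the endpoint (-0.64). With limma voom it turned for Csn1s1 untreated (-0.99), Csn1s2a in the average genotype difference (-1.99) and the endpoint average (-1.36), Csn2 in WT at 2 weeks (-2.22), Lalba in the 2-week average (-1.05) and the genotype difference at 2 weeks (0.40), and Csn1s1 in Cip2a-/- at the endpoint (-2.28). The cause was not tested.

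Leaving out 1 library in turn gave ranges that crossed 0 for Csn1s1 untreated (-1.72 to 1.39), in Cip2a-/- at the endpoint (-7.21 to 3.64) and in the endpoint average (-4.79 to 0.64). They also crossed 0 for Csn1s2a in the average genotype difference (-3.08 to 1.85) and the endpoint average (-4.23 to 2.48), Csn2 in WT at 2 weeks (-3.53 to 2.59) and Csn3 in WT at 2 weeks (-1.99 to 0.15). For Lalba they crossed 0 in the average genotype difference (-2.23 to 0.97), the 2-week average (-1.81 to 0.45), the 2-week genotype difference (-2.30 to 2.48) and Cip2a-/- at the endpoint (-1.34 to 4.81). Where 1 library is left out of a group, its 2 others carry the group. Lalba in the endpoint genotype difference kept its direction (2.78 to 8.93), with adjusted p from 0.158 to 1 over 19 alternatives. When muscle and brown fat markers were left out of the total, the share of counts in the 6 genes moved outside its interval in 1 of 18 libraries. This was untreated WT library 1, which went from 0.0188% to 0.0194%. The largest relative change, 5.74%, was that of Cip2a-/- 2-week library 1, which stayed inside its interval.

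Counts of called genes over the whole table moved more. DESeq2 called 6, 3, 83 and 3 genes for the genotype (untreated, 2 weeks, endpoint, average), 14, 36 and 88 at 2 weeks (WT, Cip2a-/-, average), 310, 270 and 828 at the endpoint, and 7 and 34 for the genotype differences of both effects. The endpoint average had 39 genes, and 60 with the replicate block, 86 with the luminal score, 4 with only the groups compared, 23 with voom and 2 to 279 without 1 library.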

Other observations

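In Cip2a-/- endpoint library 1, 6 genes had at least 10 CPM and at least 10 times the level of every other library, a rule chosen after the values were seen. Beside Wap these were Spp1 (osteopontin, a secreted milk phosphoprotein) at 898 CPM against 43.2 CPM in the next library, and Lao1 at 58.0 against 4.28 CPM. The others were Ivl, a cornified envelope gene of squamous epithelium, at 39.5 against 2.89 CPM, the acute phase gene Saa1 at 16.8 against 0.167 CPM, and Galnt9 at 16.3 against 1.01 CPM. The other 17 libraries held between 0 and 6 such genes each, so their number was not particular to this gland. Oxtr, the oxytocin receptor through which myoepithelial cells respond to suckling, was also highest in this library, at 859 CPM, with 69.8 and 33.7 CPM in the other Cip2a-/- endpoint libraries. Prlr was at 66.4 CPM there, below 172.6 and 247 CPM in the other libraries of its group.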
